A study of Homo sapiens with 20 samples.

Results

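The heat shock and chaperonin genes are the 84 human protein-coding genes whose symbols begin with HSPA, HSPB, HSPD, HSPE, HSPH, HSP90, DNAJA, DNAJB, DNAJC or CCT followed by a digit, together with TCP1. They were taken by symbol from GENCODE release 44 (GRCh38), out of 20033 protein-coding genes on the main chromosomes. They comprise 14 HSPA, 1 HSPH, 3 HSP90, 8 HSPB, 3 HSPD or HSPE, 4 DNAJA, 12 DNAJB, 29 DNAJC and 10 CCT or TCP1 genes. Readthrough gene models account for 3 of them (DNAJC25-GNG10, HSPB2-C11orf52 and HSPE1-MOB4). PC-3, an established prostate cancer epithelial cell line, was studied as wild-type (WT) cells and as cells labelled PSD10 in which the kinase gene SLK was knocked out (SLK-KO), both in standard culture with no heat or drug treatment named. Chromatin immunoprecipitation and sequencing (ChIP-seq) was done with an antibody to MYC, a transcription factor, and an antibody to RNA polymerase II (POL2), in 3 biological replicates per antibody and genotype. The other 8 of the 20 samples, IgG and Input controls, were not used here. All SLK-KO libraries carry the name PSD10, so if that is 1 line, loss of SLK and other differences of the line cannot be told apart.

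Chaperones bind unfolded proteins and help them fold or keep them from clumping. The HSPA proteins do this by cycles of ATP use that DNAJ proteins start and HSPH proteins help to reset. The HSP90 proteins finish the folding of kinases and hormone receptors, the small HSPB proteins hold unfolded proteins, HSPD1 and HSPE1 form the folding chamber of mitochondria, and TCP1 with the CCT proteins forms the chamber of the cytosol that folds actin and tubulin. In heat or other stress, the factor HSF1 binds repeats of the letters GAA and TTC, the heat shock element, and many of these genes are switched on. MYC is known to bind the E-box CACGTG near the start sites of genes for growth and protein synthesis.

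Each library gave a list of summits, the single-base tops of the peaks called in it. Each summit has a score, taken here to be -log10 of the q-value within that library. POL2 gave between 5047 and 17126 summits per WT library, the fewest in replicate 2, and between 15436 and 19017 per SLK-KO library. MYC gave 201 to 365 per WT library and 988 to 1420 per SLK-KO library. Read depth is not known, so more summits, more reads and a cleaner immunoprecipitation cannot be told apart. A rank below is the place of a summit by score in its own list, where 1 is the best, and a promoter summit is one within 1 kb of any annotated transcription start site (TSS) of the gene. Distances are from the canonical TSS, positive downstream. SLK itself had POL2 at its promoter in 2 WT libraries and in all 3 of SLK-KO, which does not show whether its product was lost. Of the epithelial markers, KRT8, KRT18 and KRT19 had a POL2 promoter summit in all 6 libraries and EPCAM in 1 WT and 3 SLK-KO libraries. KLK3, a marker of luminal prostate cells, had none. Of PTPRC, CD3E, MYH11 and PECAM1, which mark other cell types, PECAM1 had one, in 1 WT library.

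The promoters of these genes held the letters of the heat shock element more often than coding promoters at large. The window from 250 bases before to 50 after the canonical TSS was searched for GAANNTTC or TTCNNGAA, each 2 adjacent units and each the same on both strands. It held them at 28 of the 84 genes (33.3%), against 2211 of all 20033 coding genes (11.04%). A run of 3 units, GAANNTTCNNGAA or TTCNNGAANNTTC, which contains the shorter motif, was at 7 of the 84 genes (8.33%) and at 73 of all coding genes (0.364%). The shorter motif was at 13 of the 32 genes with a POL2 promoter summit in all 6 libraries (40.6%) and at 9 of the 24 without one in any library (37.5%). The run of 3 units was at 6 of the 32 and 0 of the 24. A match is a match of letters and not a measured binding site. The 8 runs are printed to show the element at the minority of 7 genes that hold it in full. They are read 5′ to 3′ along the strand of the gene from the GRCh38 reference, with the run in capitals, and the coordinates are those of the run.
HSPH1, chr13:31161951-31161963, minus strand: cgcagaTTCTGGAAAGTTCtgatca
HSP90AA1, chr14:102087120-102087132, minus strand: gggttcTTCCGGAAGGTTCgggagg
HSPA8, distal run, chr11:123062354-123062366, minus strand: gagcttGAAAGTTCCAGAAcgctgc
HSPA8, proximal run, chr11:123062179-123062191, minus strand: ggccccTTCTGGAAGGTTCtaagat
HSPA6, chr1:161524466-161524478, plus strand: gaaaggTTCGCGAAAGTTCgcggcg
HSPD1, chr2:197500068-197500085, minus strand: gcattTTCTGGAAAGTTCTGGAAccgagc
DNAJA1, chr9:33025276-33025288, plus strand: cgggcgGAACTTTCCAGAAcgctcg
DNAJB6, chr7:157336873-157336885, plus strand: agccgaGAACCTTCGCGAAggtggg
The run of HSPD1 is 18 bases long and goes on past 3 units. The first base of the run lay at -59 in HSPH1, -88 in HSP90AA1, -230 and -55 in HSPA8, -74 in HSPA6, -245 in HSPD1, 3 in DNAJA1 and -131 in DNAJB6.

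POL2 promoter summits were more frequent at these genes than at coding genes at large in each of the 6 libraries. In WT, 57, 33 and 46 of the 84 genes had one (67.9%, 39.3% and 54.8%), and 56 had one in each of the 3 SLK-KO libraries (66.7%). The shares of all coding genes were 47.3%, 19.1% and 35.3% in WT and 49.0%, 45.1% and 47.2% in SLK-KO. All 6 libraries held a POL2 promoter summit at 32 of the 84 genes (38.1%, against 18.05% of all coding genes), and none did at 24 (28.6%, against 46.3%). The 2 WT libraries with shorter lists had fewer of these genes than the longest, as they had fewer coding genes of any kind. When each list was reduced to its 5047 best-scored summits, the length of the shortest, 36.7 ± 3.51 of the genes in WT and 38.3 ± 1.53 of them in SLK-KO had a promoter summit (SD, n = 3 each). These are 43.7% and 45.6%, against 22.5% and 24.2% of all coding genes. No test was run over the list of genes, and 29 of the 84 have the TSS of another coding gene within 1 kb of their own, so part of the summits are shared with a neighbour.

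**Figure D1:**
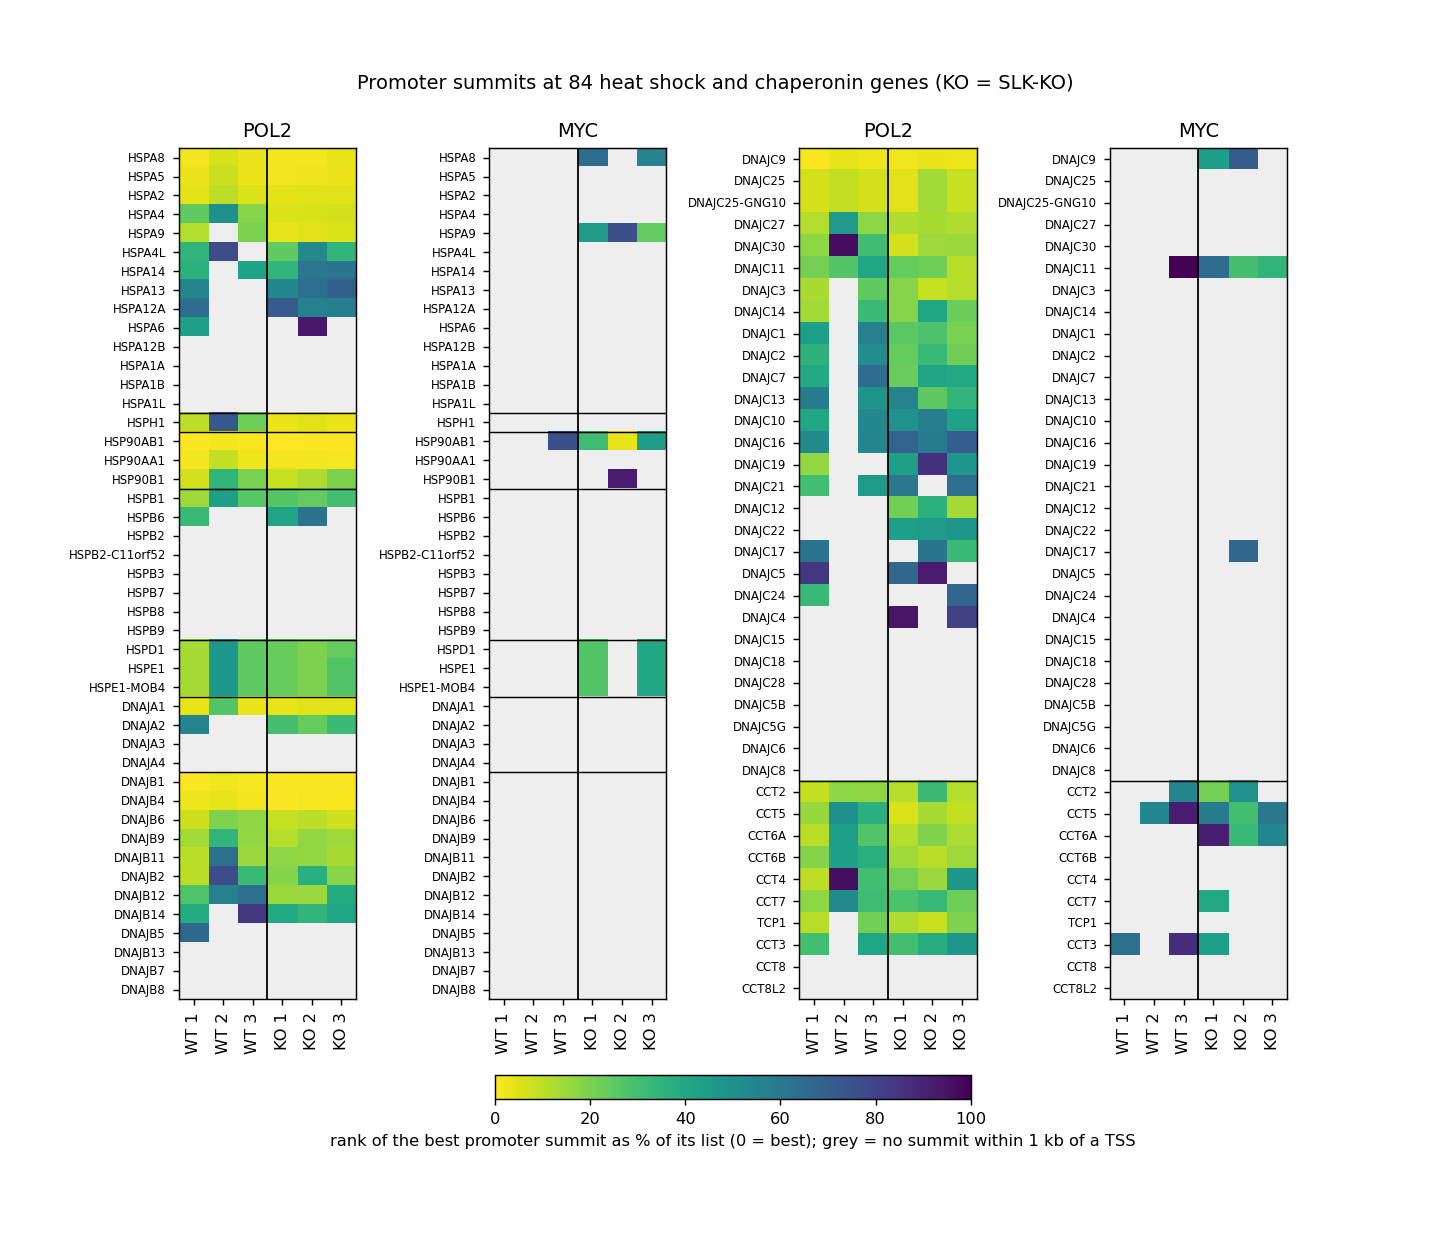
Promoter summits of POL2 and MYC at the 84 genes in each of the 6 libraries per antibody (columns; KO is SLK-KO), with genes in rows by class and, within a class, by how regularly POL2 was found. Colour is the rank of the best promoter summit as a percent of its list, 0 being the best, and grey is no promoter summit: 32 genes are coloured in all 6 POL2 columns, and 0 in all 6 MYC columns.

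The classes differed widely in POL2. The 3 HSP90 genes, HSPH1 and the 3 HSPD or HSPE genes had a promoter summit in every library. HSP90AB1, the constitutive cytosolic form, ranked 117, 80 and 112 in WT and 72, 70 and 73 in SLK-KO in lists of 5047 summits, the best median rank of all 84 genes (76.5 in the full lists). HSP90AA1, the heat-inducible cytosolic form, ranked 290, 471 and 245 in WT and 325, 243 and 241 in SLK-KO, with overlapping ranges. HSP90B1, the form of the endoplasmic reticulum, was lower in the lists, at 1183, 1736 and 2013 in WT and 1605, 1838 and 3198 in SLK-KO. All 3 had their POL2 summits downstream of the start site, where paused polymerase is usually found.

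Among the 14 HSPA genes, 4 had POL2 at the promoter in all 6 libraries and 4 in none. HSPA8, the constitutive cytosolic member, led the class at ranks 294, 310 and 283 in WT and 351, 287 and 539 in SLK-KO. HSPA5, which serves the endoplasmic reticulum, ranked 489, 402 and 272 in WT and 431, 398 and 508 in SLK-KO. For both genes the genotypes overlapped. HSPA9, the mitochondrial member, had no summit in the short list of WT replicate 2, ranked 2000 and 1958 in the other WT libraries, and ranked 670, 674 and 885 in SLK-KO. HSPA6, a strictly heat-inducible member whose promoter holds one of the runs printed above, had a summit in 2 libraries alone, at rank 7302 in WT replicate 1 and 14395 in SLK-KO replicate 2.

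The co-chaperones of the DNAJ classes ranged from the top of the lists to no summit at all. DNAJB1, the main stress-induced partner of the cytosolic HSPA proteins, ranked 112, 113 and 130 in WT and 116, 140 and 124 in SLK-KO, next to HSP90AB1 by median (120). Of the 12 DNAJB genes, 7 had POL2 in all 6 libraries and 3 in none. DNAJA1 led its class of 4 genes at 662, 1354 and 325 in WT and 719, 669 and 800 in SLK-KO, while 2 of the 4 had no summit. Of the 29 DNAJC genes, a class with varied functions, 6 had POL2 in all 6 libraries and 7 in none, and DNAJC9, a histone chaperone, led with a median rank of 308. The number of DNAJC genes with a summit moved most with list length, at 19, 6 and 15 in WT and 20, 19 and 21 in SLK-KO. DNAJC25 and DNAJC25-GNG10 share their summits.

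The chaperonin of the cytosol had POL2 at nearly all of its subunit genes. Of the 8 subunit genes of the ring that are expressed in most cells, TCP1, CCT2, CCT3, CCT4, CCT5, CCT6A and CCT7 had a promoter summit in at least 5 libraries, and CCT8 in 0. CCT2 had the best median rank (1737), and the median over the class was 2431, further down the lists than HSPA8 or DNAJB1. TCP1 ranked 1859 and 2107 in WT, with no summit in replicate 2, and 2256, 1326 and 3125 in SLK-KO. CCT4 ranked 1695, 4860 and 3006 in WT and 3946, 2320 and 7625 in SLK-KO, and CCT7 ranked 2891, 2641 and 3066 in WT and 5383, 4963 and 3572 in SLK-KO. The HSPB class stood at the other end: 6 of 8 genes had no POL2 promoter summit, and HSPB1, which is expressed in many tissues, was the member with a summit in all 6 libraries. Several HSPB genes are known mainly from muscle, and DNAJB7, DNAJB8, DNAJB13 and CCT8L2, which also had none, mainly from testis.

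The stress genes HSPA1A and HSPA1B, the best-known heat-induced members, had no POL2 summit in any list. HSPA1A (ENSG00000204389.10, chromosome 6, 31815543 to 31817946), HSPA1B and HSPA1L lie in a stretch of 5127725 bp on chromosome 6, from 28443437 to 33571162, that has no POL2 summit in any of the 6 lists and holds 184 coding genes. The 300 bases around the start sites of these 3 genes, and of DNAJA3 and DNAJC28, are also present as exact copies on alternate sequences of GRCh38 (at least 90% of their 50-base words), on 4 such sequences for HSPA1B, 2 for HSPA1A and for HSPA1L, and 1 for DNAJA3 and for DNAJC28. None of these 5 genes had a POL2 promoter summit in any library, against 60 of the other 79 (75.9%). Over all coding genes, 7 of 711 with such a copy had one (0.985%), against 10758 of 19322 without (55.7%). On the alternate sequences themselves no POL2 summit lay closer to a copy of HSPA1A than 317335 bp or to a copy of HSPA1B than 329530 bp. Reads that match several places equally well are usually left out, but how they were treated is not given in the sources used here, so no summit at these 5 genes is not a measure of absent POL2.

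CCT8, DNAJC8 and DNAJC15, which many cell types express, have no such copy in the reference used here, and still had no POL2 promoter summit. They lie in stretches of 373567, 281161 and 364713 bp without a POL2 summit in any list, with 6, 6 and 2 coding genes in them. Of the 24 genes with no POL2 promoter summit, 11 were over 100 kb from any POL2 summit (45.8%), near the share over all coding genes without one (4074 of 9268, 43.96%). Patch sequences added in GRCh38.p14 were not used here, so copies on them were not tested.

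Genotype differences in the presence of POL2 were few. A gene was called when all 3 libraries of a genotype had a promoter summit and 0 of the other did, since an exact permutation of 3 against 3 libraries cannot give a p below 0.1. DNAJC12 and DNAJC22 were called in SLK-KO (2 of 84, 2.38%), where 1.54% of all coding genes were, and 0 of the 84 were called in WT, where 0.00998% of coding genes were. DNAJC12, a co-chaperone of amino acid hydroxylases, had summits at 151, 72 and 123 bp from its TSS, at ranks 4026, 5547 and 2173 of the SLK-KO lists. DNAJC22 had summits at ranks 8258, 6913 and 7760, at 1165, 1121 and 1143 bp, near another annotated TSS of the gene. The ranks of both lie within the length of the longest WT list. Those of DNAJC22, and the 5547 of DNAJC12, lie past the end of the shortest (5047). A rank holds within its own list, so this alone does not keep a site out of a WT list. Neither gene was called in lists of 5047 summits, where DNAJC1, a co-chaperone of the endoplasmic reticulum, was (1 gene, with 0.998% of coding genes called in SLK-KO and 0.454% in WT). DNAJC1 had full-list ranks of 7481 and 5620 in WT replicates 1 and 3 and of 4842, 4310 and 3269 in SLK-KO. Without WT replicate 1, 6 genes were called in SLK-KO. For this and later counts with a library left out, non-overlap is easier. The share of coding genes called in the same setting is not given, so these counts have no background.

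**Figure D2:**
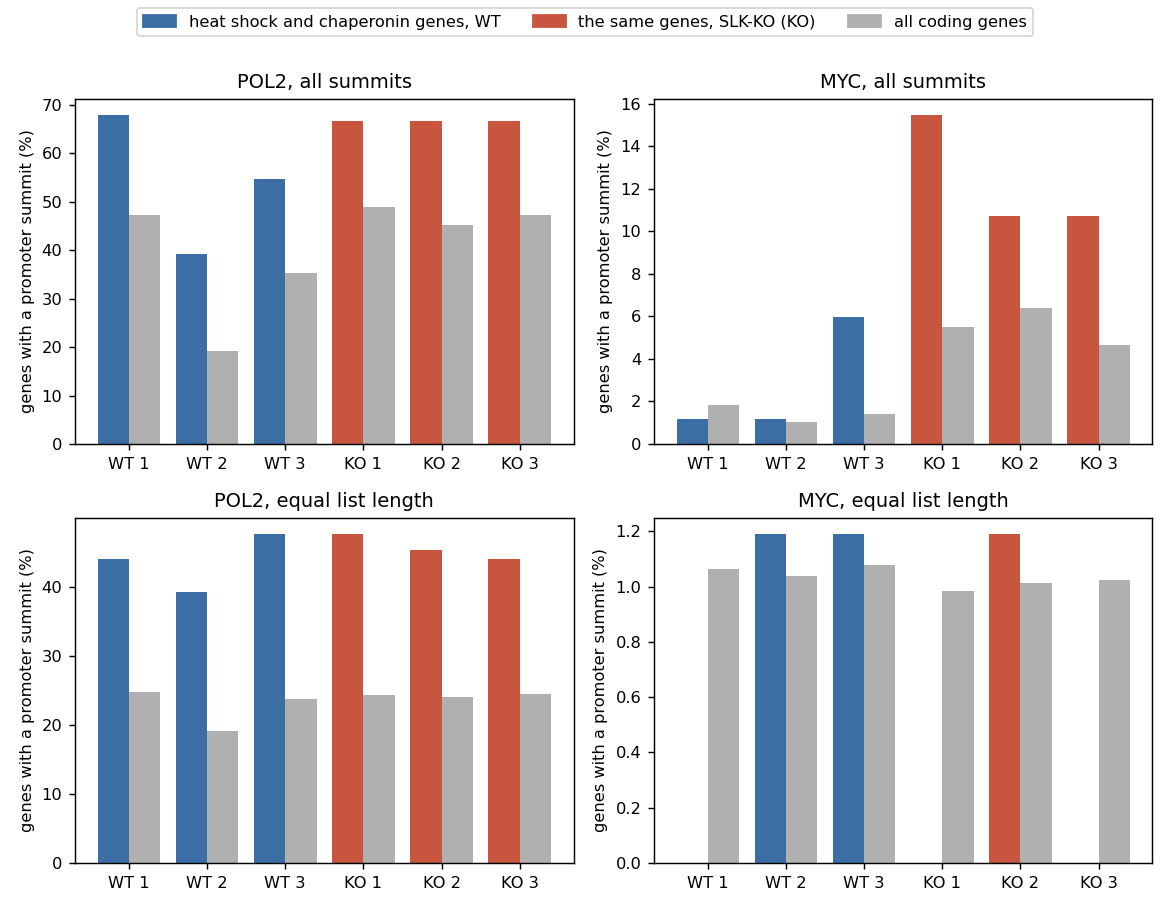
Percent of the 84 genes (coloured) and of all 20033 coding genes (grey) with a promoter summit, in each library, for the full lists and for lists of equal length (5047 POL2 or 201 MYC summits); KO is SLK-KO. The coloured POL2 bars stand above the grey ones in every library and at both lengths. The higher MYC bars of SLK-KO in the full lists are not seen at equal length, where each list holds 0 or 1 of the 84 genes.

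The place of the promoter summit in lists of equal length differed between genotypes at 12 of the 28 genes that had one in all 6 shortened lists. A gene was called when the ranks of the 3 WT and the 3 SLK-KO libraries did not overlap. The rank was better in SLK-KO at 5 of 28 genes (17.9%, against 15.7% of 2613 coding genes tested) and worse at 7 (25%, against 15.2%). HSPH1, HSPA4, CCT5, DNAJC30 and HSP90AB1 were better placed in SLK-KO. CCT2, DNAJC9, HSPA2, HSPB1, HSPD1, HSPE1 and HSPE1-MOB4 were worse placed, the last 3 sharing 1 divergent promoter and nearly all of their summits, so the 7 genes stand for 5 promoters. The rank of a gene is that of its best promoter summit, which did not lie at the same place in every library. At HSPA2 and HSPA4 the compared summits lay at different places in WT and SLK-KO. At CCT5, DNAJC30, DNAJC9, HSPD1, HSPE1 and HSPE1-MOB4 they did in part of the libraries, as set out below. Without SLK-KO replicate 1, 11 genes were called worse.

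HSPH1, which exchanges nucleotide on HSPA proteins, had the widest gap. It ranked 1732, 3663 and 2209 in WT and 551, 683 and 470 in SLK-KO, a difference of -2.10 in mean log2 rank, so each SLK-KO library placed it above each WT library. HSPA4, of the same group of exchange factors by sequence, ranked 4207, 2518 and 1810 in WT and 1015, 956 and 1097 in SLK-KO, -1.39 in mean log2 rank. CCT5 ranked 2626, 2517 and 3642 in WT and 1098, 2036 and 1520 in SLK-KO. The summit of rank 3642 lay at -583 bp, closer to the start of the neighbouring gene ATPSCKMT. The others lay at 42 and 28 bp in WT and at 33, 46 and 19 bp in SLK-KO. DNAJC30 shares its start region with BUD23, whose TSS was closer to the summit in 4 libraries. Its summits lay at -42, -20 and -188 bp in WT and at -180, -214 and -174 bp in SLK-KO. The gap of HSP90AB1 was small, -0.50 in mean log2 rank, within the best 117 summits of every list.

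Among the genes placed lower in SLK-KO, DNAJC9 ranked 172, 197 and 233 in WT and 383, 429 and 436 in SLK-KO. Its summits lay at 64, 60 and 26 bp in WT and at -39, 22 and 463 bp in SLK-KO. HSPB1 ranked 2493, 2198 and 2576 in WT and 5004, 3699 and 4852 in SLK-KO, 0.89 in mean log2 rank. HSPD1 ranked 2295, 2350 and 2421 in WT and 4387, 3069 and 3872 in SLK-KO. The last of these summits was at a distant TSS of HSPD1, at -16307 bp and 13 bp from the start of MOB4, and the summit at the promoter shared with HSPE1 ranked 4455 in that library. In SLK-KO replicate 1 the summit, of rank 4387, lay at -585 bp, 12 bp from the start of HSPE1-MOB4. Those of WT lay at 39, 27 and 51 bp and that of SLK-KO replicate 2 at 31 bp. HSPE1 and HSPE1-MOB4 have the same summit in SLK-KO replicate 1, so these rank calls do not compare the same position throughout. CCT2 ranked 1592, 856 and 1640 in WT and 2091, 4836 and 1834 in SLK-KO, and so moved in the opposite direction from CCT5 in the same ring. The other subunits tested, CCT6A and CCT6B, had overlapping ranks. The test left out genes without a summit in all 6 shortened lists, among them CCT3, CCT4, CCT7 and TCP1. CCT7 fell outside the shortened list of SLK-KO replicate 1. Its full-list ranks, 2891, 2641 and 3066 in WT and 5383, 4963 and 3572 in SLK-KO, did not overlap, while those of CCT4 did.

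**Figure D3:**
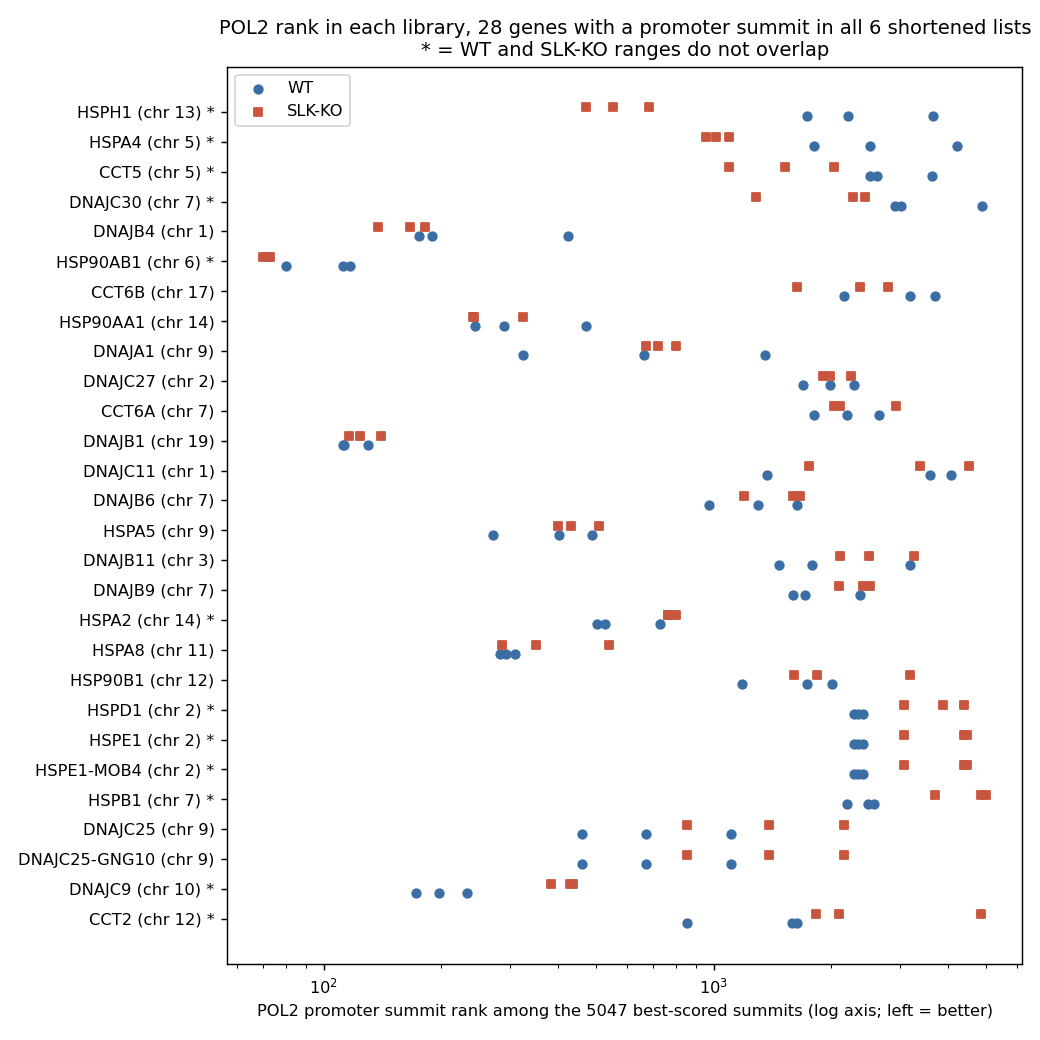
Rank of the best POL2 promoter summit in each library, on a log axis, at the 28 genes with one in all 6 lists of 5047 summits; circles are the 3 WT and squares the 3 SLK-KO libraries, and an asterisk marks genes whose ranges do not overlap. HSPH1 (470 to 683 in SLK-KO, 1732 to 3663 in WT) shows the widest gap, and DNAJC9 (172 to 233 in WT, 383 to 436 in SLK-KO) and HSPB1 (2198 to 2576 in WT, 3699 to 5004 in SLK-KO) show gaps in the other direction.

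Several of these calls fall on chromosomes where coding genes at large moved the same way. On chromosome 5, which holds HSPA4 and CCT5, 37.4% of the 131 coding genes tested ranked better in SLK-KO and 7.63% worse. On chromosome 13, which holds HSPH1, 31.7% of 41 ranked better and 2.44% worse, and on chromosome 2, which holds HSPD1 and HSPE1, 2.13% of 141 ranked better and 47.5% worse. The part of these chromosome-wide shifts in the calls was not tested beyond a centring chosen after they were seen. When each log2 rank was centred on the median of its chromosome and library, HSPH1 (-1.70), HSPA4 (-0.82), DNAJC30 and HSP90AB1 kept their call and CCT5 lost it. HSPD1 (-0.13), HSPE1 and HSPE1-MOB4 lost theirs, CCT2, DNAJC9, HSPA2 and HSPB1 kept theirs, and DNAJC27 (better) and DNAJB1 (worse) were gained. With centring 15.2% of coding genes were called better and 13.1% worse.

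**Figure D4:**
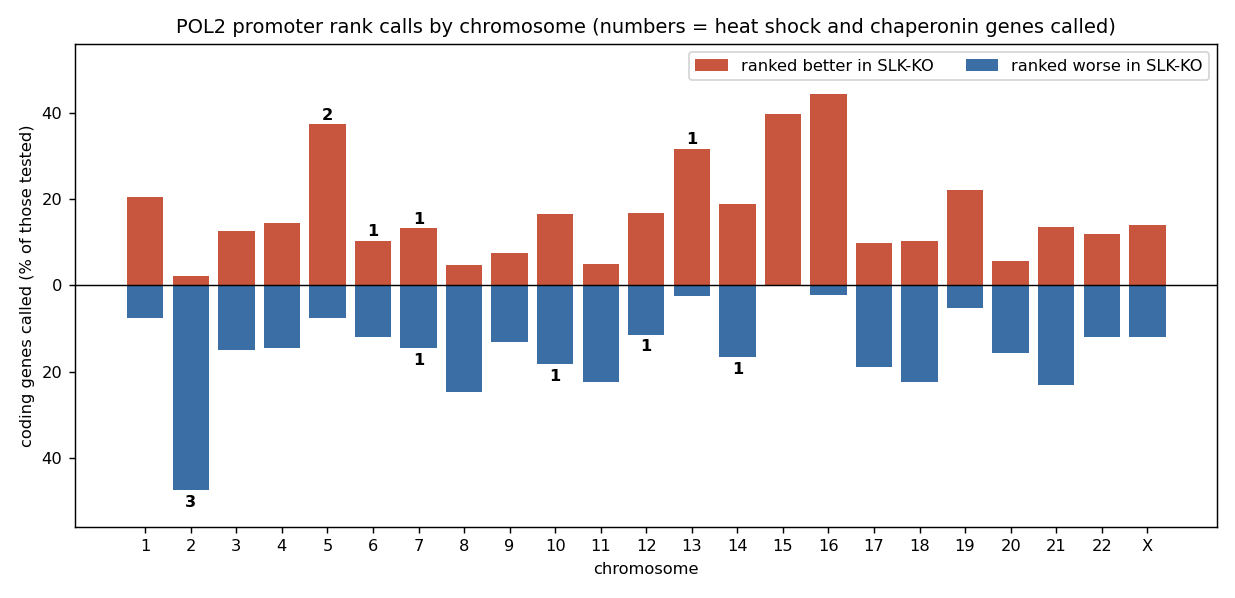
Percent of tested coding genes on each chromosome whose POL2 promoter summit ranked better (up) or worse (down) in all 3 SLK-KO than in all 3 WT libraries; bold numbers count the heat shock and chaperonin genes called. The 2 on chromosome 5, the 1 on chromosome 13 and the 3 on chromosome 2 stand on chromosomes with a marked tilt in the same direction, at 37.4%, 31.7% and 47.5% of coding genes.

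The POL2 summits lay just downstream of the start site, as at other genes. The median distance over the genes with a promoter summit was 28 to 39.5 bp in the 6 libraries, against 34 to 38 bp over coding genes. Positions were compared at the 32 genes with a summit in all 6 libraries, and a shift was called when the ranges did not overlap and the means differed by at least 100 bp. HSPA2 was called upstream in SLK-KO (1 of 32, 3.13%, against 2.68% of 3615 coding genes) and HSPA4 downstream (1 of 32, against 2.46%).

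HSPA2 (ENSG00000126803.10, chromosome 14, 64535905 to 64546173), a member best known from testis, had its best POL2 summit at 35, 30 and 25 bp in WT and at -525, -557 and -529 bp in SLK-KO. The upstream position lay 152 to 184 bp from the TSS of the antisense RNA gene HSPA2-AS1. WT replicate 2 had a second summit there, at -556 bp and rank 1665, below its summit at 30 bp with rank 503. The other WT libraries had a summit at the downstream place alone, and the 3 SLK-KO libraries at the upstream place alone. The ranks were 728, 503 and 526 in WT and 799, 766 and 765 in SLK-KO, without overlap. They belong to summits at different places, so the rank call of HSPA2 does not compare the same position. The lists give no peak widths, so a moved top of one broad peak and separate peaks cannot be told apart. HSPA4 had summits at -56, -224 and -6 bp in WT and at 101, 31 and 44 bp in SLK-KO, and the TSS of a long non-coding RNA gene lies 64 to 221 bp from them. Its rank call thus also compares summits at different places. Without WT replicate 2, 3 genes were called upstream and 3 downstream, and without SLK-KO replicate 2, 2 and 5.

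**Figure D5:**
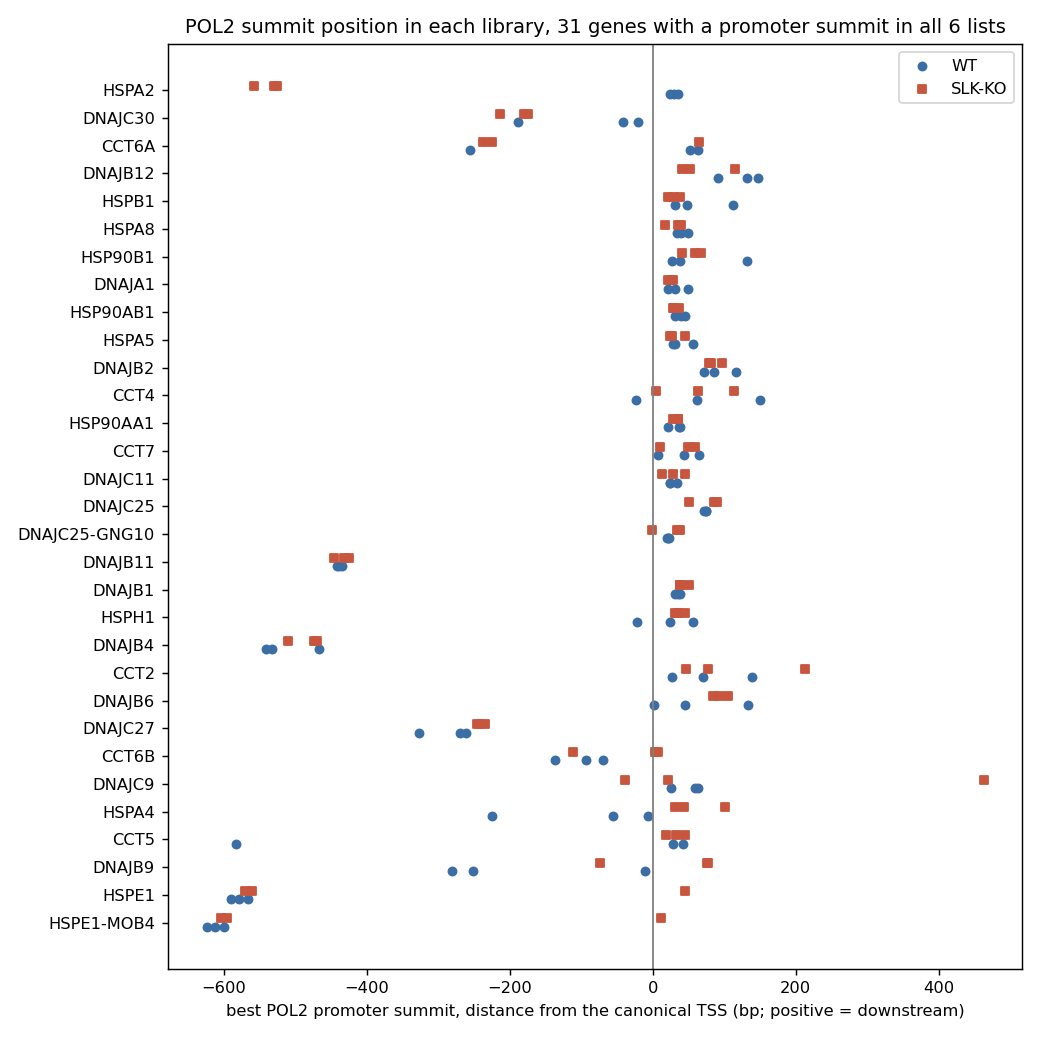
Distance of the best POL2 promoter summit from the canonical TSS, in bp, positive downstream, at 31 genes with one in all 6 lists; circles are WT and squares SLK-KO libraries (HSPD1, with a summit at a distant TSS in 1 library, is not drawn). Most points lie within about 100 bp of the TSS, and HSPA2 is the gene whose WT points (25 to 35) and SLK-KO points (-557 to -525) are farthest apart without overlap.

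Within gene bodies, over 1 kb from any TSS of the gene, POL2 summits were found at 6.67 ± 5.03 of the 84 genes in WT and at 12 ± 1 in SLK-KO (SD, n = 3 each), 7.94% and 14.3%, against 7.54% and 12.9% of coding genes. HSPA9 had 0, 0 and 0 body summits in WT and 5, 4 and 3 in SLK-KO. DNAJC7, a co-chaperone that binds both HSPA and HSP90 proteins, had 0 in each WT library and 1 in each SLK-KO library. These 2 genes were called in SLK-KO (2.38%, against 1.19% of coding genes). DNAJB6, a suppressor of protein aggregation, had 4, 1 and 1 in WT and 0, 0 and 0 in SLK-KO, the 1 call in WT (1.19%, against 0.02% of coding genes). At equal list length 0 genes were called in either direction, where 0.12% and 0.105% of coding genes were. Without WT replicate 1, 5 genes were called in SLK-KO, and without WT replicate 2, 2 in WT.

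MYC summits were found at few of these promoters, and mostly in SLK-KO. In WT 1, 1 and 5 of the 84 genes had one and in SLK-KO 13, 9 and 9 (12.3% ± 2.75 against 5.51% ± 0.861 of coding genes, SD, n = 3). At least 1 of the 6 libraries held a MYC promoter summit at 15 genes (17.9%, against 9.66% of coding genes). All 6 did at 0 of the 84 (99 coding genes, 0.494%). HSPD1, HSPE1 and HSPE1-MOB4 are each counted but share the same MYC summits, so the 15 genes stand for fewer promoters. In SLK-KO replicates 1 and 3, the 13 and 9 genes rested on 11 and 7 summits. Over coding genes, 1099 and 933 genes rested on 910 and 768 summits there. The chaperonins made up much of this: 5 of 10 CCT or TCP1 genes and the HSPD1 and HSPE1 promoter had one, with 2 of 3 HSP90, 2 of 14 HSPA and 3 of 29 DNAJC genes, and 0 of the HSPH, HSPB, DNAJA and DNAJB genes. When each MYC list was reduced to its 201 best-scored summits, 0.667 ± 0.577 of the genes in WT and 0.333 ± 0.577 of them in SLK-KO had one (SD, n = 3 each). These are 0.794% and 0.397%, against 1.06% and 1.01% of coding genes, so neither the higher number in SLK-KO nor the excess over coding genes was seen in lists of equal length. At this length each list held 0 or 1 of the 84 genes. That is too few to compare the genotypes or to set these genes against coding genes, so no conclusion is drawn from it.

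CCT5 was the gene most often found, in 5 of 6 MYC libraries. Its summits lay at 224 and 271 bp in WT replicates 2 and 3 (ranks 107 and 246) and at 344, 239 and 148 bp in SLK-KO (ranks 704, 432 and 596). CCT2 had one in WT replicate 3 (rank 146) and in SLK-KO replicates 1 and 2 (ranks 256 and 693). CCT3 had one in WT replicates 1 and 3 (ranks 229 and 232) and in SLK-KO replicate 1 (rank 526), each closer to the start of the neighbouring gene TSACC. CCT7 had one in 1 SLK-KO library (rank 476). DNAJC11, a mitochondrial protein, had one in WT replicate 3 (rank 266) and in all 3 SLK-KO libraries (ranks 776, 420 and 342).

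CCT6A and HSPA9 were called for MYC in SLK-KO, with a promoter summit in 3 SLK-KO and 0 WT libraries (2 of 84, 2.38%, against 0.874% of coding genes), and 0 were called in WT, as were 0 of all coding genes. CCT6A (ENSG00000146731.11, chromosome 7, 56051685 to 56063989) had summits at ranks 1118, 460 and 528, and in 2 of the libraries the start of PSPH was closer. HSPA9 (ENSG00000113013.16, chromosome 5, 138553756 to 138575675) had summits at 26, -2 and -2 bp, at ranks 547, 1071 and 239. All of these ranks except the 239 exceed the length of even the longest WT list (365). A site has its own rank in each list, so this alone does not keep it out of a WT list. CCT5, for example, ranked 704, 432 and 596 in SLK-KO but 107 and 246 in WT replicates 2 and 3. The part of list length in these calls was not tested beyond the lists of equal length. At equal length neither gene was called, nor was any other of the 84, with 0.0349% of coding genes called in SLK-KO and 0.03% in WT. With a score of at least 5, 1 gene was called. Without WT replicate 3, 4 genes were called, and without SLK-KO replicate 2, 6 were.

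HSPA9 appears in several of these comparisons and is set out here after its values were seen. In SLK-KO it had MYC promoter summits in 3 of 3 libraries, body POL2 summits in 3 of 3, and POL2 promoter ranks of 670, 674 and 885 against 2000 and 1958 in the WT libraries that had one. It lies on chromosome 5, where 37.4% of coding genes tested ranked better for POL2 in SLK-KO, and HSPA9 itself could not be tested for rank because WT replicate 2 had no summit. The part of the chromosome in these values was not tested.

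Of the remaining genes, HSP90AB1 had a MYC summit in WT replicate 3 (rank 202) and in all 3 SLK-KO libraries (ranks 379, 45 and 439), at 354 bp in WT and at 344, 354 and 380 bp in SLK-KO, downstream of its POL2 summits. HSPA8 had one in 2 SLK-KO libraries (ranks 784 and 549), also inside the gene at 553 and 468 bp. The divergent HSPD1 and HSPE1 promoter had one in 2 SLK-KO libraries (ranks 331 and 394), between the 2 start sites and nearer that of HSPD1. DNAJC9 had one in 2 SLK-KO libraries (ranks 534 and 1001), HSP90B1 in 1 (rank 1310), and DNAJC17 in 1 (rank 954), closer to the start of C15orf62. HSPA1A was without one, as it was without POL2.

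CACGTG lay within 100 bp of the MYC promoter summits of 3 of the 15 genes. These are shown as the E-boxes found beside MYC summits, 30 bases each from the GRCh38 reference along the strand of the gene, with the E-box in capitals.
HSP90AB1, chr6:44247458-44247487, plus strand: ggctggcagctgCACGTGgtggccgcgcgg
HSPA8, chr11:123061563-123061592, minus strand: tcggggtaagacCACGTGttgagcaacgcc
HSPA9, chr5:138575403-138575432, minus strand: cgcccctcacccCACGTGgttggaggtttc
The first base of the E-box lay at 369 bp in HSP90AB1, 556 bp in HSPA8, in an annotated UTR, and -19 bp in HSPA9, where another transcript of the gene has its UTR. All 4 MYC libraries with a summit at HSP90AB1, both at HSPA8 and all 3 at HSPA9 had it within 100 bp of the motif, those at HSPA8 at 5.5 and 90.5 bp. At the other 12 genes the letters CACGTG were not in that window. By library, 0 of 1, 0 of 1 and 1 of 5 MYC promoter summits of these genes had the motif in WT and 3 of 11, 2 of 9 and 3 of 7 in SLK-KO, against 39.3%, 44.3% and 44.1% of those of coding genes in WT and 30.8%, 29.5% and 30.2% in SLK-KO. CACGTG from 250 bases before to 50 after the TSS was at 10 of the 84 genes (11.9%, against 8.76% of coding genes).

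A POL2 summit of the library with the same genotype and replicate number lay within 250 bp of 0 of 1, 1 of 1 and 2 of 5 MYC promoter summits of these genes in the WT libraries and of 6 of 11, 8 of 9 and 5 of 7 in the SLK-KO libraries. The same sites recur between libraries, and the numbers in WT are too small to compare the genotypes. Over coding genes the share was 58.0%, 38.9% and 50.5% in the WT and 58.6%, 55.4% and 56.3% in the SLK-KO libraries. The body of 1 of the 84 genes held a MYC summit in 1 SLK-KO library and none did in WT, and 0 genes were called, where 0.11% of coding genes were in SLK-KO and 0 in WT.

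The partners and regulators of chaperones, are 36 further genes chosen by function. POL2 was at the promoter in all 6 libraries at 10 of the 36 (27.8%, against 18.05% of coding genes) and in none at 8 (22.2%, against 46.3%), among them HSF1, the master regulator of the heat shock response, and HYOU1, CHORDC1, BAG6 and PFDN6. BAG6 and PFDN6 lie in the stretch of chromosome 6 described above. Of the 50-base words of their promoters, 100% and 86.1% are on alternate sequences. By the rule used above BAG6 counts as copied, and PFDN6 falls short of it. How reads with several matches were treated is not given, so no summit at BAG6 is not a measure of absent POL2. The part of the incomplete copy of PFDN6 in its lack of a summit was not tested, so absent POL2 is not concluded there either. None of the 36 was called for POL2 presence in either direction, where 1.54% of coding genes were called in SLK-KO and 0.00998% in WT. SUGT1, a partner of HSP90, was the 1 gene called for MYC in SLK-KO, at ranks 908, 949 and 821, past the end of every WT list (1 of 36, 2.78%, against 0.874% of coding genes). As a site has its own rank in each list, this alone does not keep SUGT1 out of a WT list. The part of list length in this call was not tested. At least 1 library held a MYC promoter summit at 8 of the 36 (22.2%, against 9.66%). Of 6 genes tested for POL2 rank, SIL1 and PFDN2 ranked better in SLK-KO and STIP1 worse, where 15.7% and 15.2% of coding genes did. SIL1 lies on chromosome 5, where 37.4% of coding genes tested ranked better, and PFDN2 on chromosome 1, where 20.6% did. STIP1 lies on chromosome 11, where 22.4% ranked worse. The part of the chromosome in these calls was not tested. STIP1, which links HSPA and HSP90 proteins, ranked 497, 940 and 474 in WT and 973, 1836 and 1081 in SLK-KO.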

How the data were processed

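MYC and POL2 summit lists of 12 ChIP-seq libraries (3 per antibody and genotype) were used. Per the submitters' processing notes, 50 bp paired-end reads went through nf-core/chipseq 2.1.0 on GRCh38.p14, with Trim Galore 0.6.7, BWA 0.7.18-r1243, Picard 3.2.0 and MACS3 3.0.1. The control library and caller options are not given in the sources used here. The authors' deposited score per summit was taken to be -log10 q, since every list stops just above the value for q = 0.05. Scores served for ranks and filters inside 1 list. The lists hold no read counts, so depth is unknown.

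TSSs and gene bodies came from GENCODE release 44, the canonical TSS being that of the Ensembl canonical transcript. Every call was made over all 20033 coding genes by non-overlap of 3 WT and 3 SLK-KO libraries, without p-values, as an exact permutation cannot go below 0.1. Alternatives covered windows, TSS choice, a score of at least 5, equal list length and leaving out each library. Genes were named if they had a MYC promoter summit, were called, led their class or belonged to a list of main chaperones and chaperonin subunits. Genes with no POL2 promoter summit were named as a group. Some of the cell type markers looked at are not reported here. Members, lists and rules were chosen with earlier results of these data known. Motifs and copies were searched in the GRCh38 reference, which has 431 sequences beyond the main chromosomes and lacks the p14 patches. The software was numpy 2.4.6, pandas 2.3.3, scipy 1.17.1 and matplotlib 3.10.9 under Python 3.11.15.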

Additional observations from a re-analysis of the deposited data

How the results depend on the processing

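Of 152 alternatives, 127 stayed within 1.5 times the value reported for a count, within 1 SD between replicates for a mean difference, or within the counting interval for a share. Another 23 moved further and 2 changed sign. List length changed the most. With lists of equal length, the mean number of genes with a promoter summit in SLK-KO minus WT went from 10.7 to 1.67 for POL2 and from 8.00 to -0.333 for MYC, and that of genes with a POL2 body summit from 5.33 to -0.667. Genes called in SLK-KO were then 1 for POL2 promoters, 0 for MYC promoters and 0 for POL2 bodies, and 0 were called in WT for bodies. With a score of at least 5, 1 gene was called in SLK-KO for MYC promoters and 1 for POL2 bodies, and 0 in WT for bodies. With a window of 500 bp, 1 gene was called in WT for POL2 promoters and 0 for an upstream position, because the upstream summits of HSPA2 lie outside it. With the canonical TSS alone, 1 gene was called in SLK-KO for POL2 promoters. POL2 within 500 bp instead of 250 bp of a MYC summit gave 96.3% instead of 70.4% of the MYC promoter summits pooled over the SLK-KO libraries.

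Leaving out a library in turn, genes called in SLK-KO ranged from 2 to 6 for POL2 promoters, 2 to 6 for MYC promoters and 2 to 5 for POL2 bodies, and genes called in WT from 1 to 2 for bodies. Position calls ranged from 1 to 3 upstream and 1 to 5 downstream, and rank calls from 5 to 7 better and 7 to 11 worse. The mean differences ranged from 4.5 to 16.5, from 6.67 to 9.33 and from 3 to 8. Fewer libraries make non-overlap easier, and the share of coding genes called with a library left out is not given beside these counts. No paired analysis was possible because no result comes from a test, and matching libraries by number leaves each mean difference as it is. The number of libraries, the unknown depth and the single name of the SLK-KO cells limit every comparison.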
